A study of Mus musculus with 16 samples.

Results

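The genes described here encode the signalling chains of the T cell receptor, its CD8 co-receptor and the first kinases and adaptors that act on them. The list was fixed by name and comprised 10 of the 55573 gene identifiers in the count table: Cd3d, Cd3e, Cd3g, Cd247, Trat1, Cd8a, Cd8b1, Lck, Zap70 and Lat. The antigen-binding alpha and beta chains of the receptor have no signalling motif of their own and depend on the CD3 chains and the CD3 zeta chain for transport to the membrane and for signalling. When antigen on an MHC class I molecule is bound, Lck, held at the tail of CD8, phosphorylates the tyrosine motifs of these chains. ZAP-70 docks there and phosphorylates the scaffold LAT, from which the calcium, Ras and NF-kappaB branches start.

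RNA was sequenced from OT1 cells, ovalbumin-specific CD8 T cells of C57BL/6 mice. The cells had been given as a mixture of Foxp3UP and Mock cells to mice with tumours and were sorted out of tumour suspensions after 5 days, as live cells, by CD8, CD45.1 and/or CD90.1. Foxp3UP, MockUP, Foxp3DN and MockDN had 4 libraries each. What UP and DN mean, how Foxp3 was introduced and from how many animals a library came is not stated in the labels, so the p-values measure the spread between these libraries, which may be technical. The OT1 receptor and the host tumour are shared by all groups as far as the labels say. Which of CD45.1 and CD90.1 was used to sort which group is not stated, so the sort may differ between groups. CD8 was a sorting marker, and the part of the gate in the level of Cd8a was not tested.

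Library totals ran from 9389477 to 13226590 counts, and all 10 genes passed the filter on low counts with 13711 genes in all. Levels are in CPM, a gene's count relative to the library total after scaling by the trimmed mean of M values (TMM). Foxp3, the lineage factor of regulatory T cells and the check of the labels, was at 15.2, 21.0, 29.5 and 28.7 CPM in Foxp3UP 1 to 4, against 11.5, 13.0, 13.7 and 11.5 in MockUP. It was at 10.3, 10.1, 10.4 and 10.2 CPM in Foxp3DN, against 12.6, 13.4, 11.0 and 14.6 in MockDN. All 4 Foxp3DN libraries were thus below all 4 of MockDN, which held for 0.598% of all genes. The level in Foxp3UP was 1.89-fold that in MockUP (edgeR adjusted p = 0.00233), and the difference in the DN arm was not called (adjusted p = 1.00). Replicates 1 and 2 of all groups precede replicates 3 and 4 in the titles' sample numbers, and same-numbered Foxp3 and Mock libraries deviated together. Both facts are used beside the results that they change. One library, MockUP 2, stood apart: the 10 genes took 0.467% of its counts, against 0.577% to 0.690% in the other 15 libraries.

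The libraries had the CD8 T cell markers that their label calls for. The 6 CD8 T cell markers (Cd3d, Cd3e, Cd3g, Cd8a, Cd8b1 and Trac) summed to between 3183 and 5906 CPM over the 16 libraries. Cd4 reached at most 0.759 CPM, and the B cell genes Ms4a1 and Pax5 and the endothelial gene Cdh5 were at 0 in every library. Other members of these lists had counts. The CD4 T cell markers, Cd4 and Zbtb7b, summed to 5.43 to 13.1 CPM, and the 5 B cell markers to 3.80 to 7.92 CPM. The 6 stromal and endothelial markers summed to 50.1 to 68.9 CPM, most of it Pecam1, at 47.6 to 68.3 CPM. The 5 NK cell markers summed to 16.3 to 24.4 CPM, most of it Eomes, at 13.4 to 21.4 CPM. The 8 myeloid markers summed to 54.6 to 75.6 CPM in Foxp3UP, 33.8 to 54.2 in MockUP, 38.0 to 64.1 in Foxp3DN and 39.2 to 48.9 in MockDN. The melanocyte and epithelial markers summed to 59.7 to 126 CPM in Foxp3UP, 55.9 to 82.6 in MockUP, 34.7 to 68.5 in Foxp3DN and 23.8 to 63.4 in MockDN. The part of these markers' source cells in the results below was not tested.

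Levels per kilobase of exonic length placed Cd8b1, the beta chain of the co-receptor, highest, at a mean of 625 CPM per kb over the 16 libraries. Lck followed at 381 CPM per kb. Cd3d (293), Cd8a (287) and Cd3g (279 CPM per kb) lay close together. Cd3d exceeded Cd8a in 10 of 16 libraries and Cd8a exceeded Cd3g in 9, so these neighbours did not differ beyond the spread between libraries. Cd3e was at 194, Lat at 131 and Zap70 at 90.7 CPM per kb. Cd247, the zeta chain, was at 39.2 CPM per kb, below each CD3 chain, and Trat1 was last at 2.16 CPM per kb. Of the 5329 exonic bases of Cd247, 3007 are shared with Pou2f1 on the opposite strand. The part of these shared bases in the level and rank of Cd247 was not tested. Every other step of this order was seen in 15 or 16 of the 16 libraries.

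**Figure D1:**
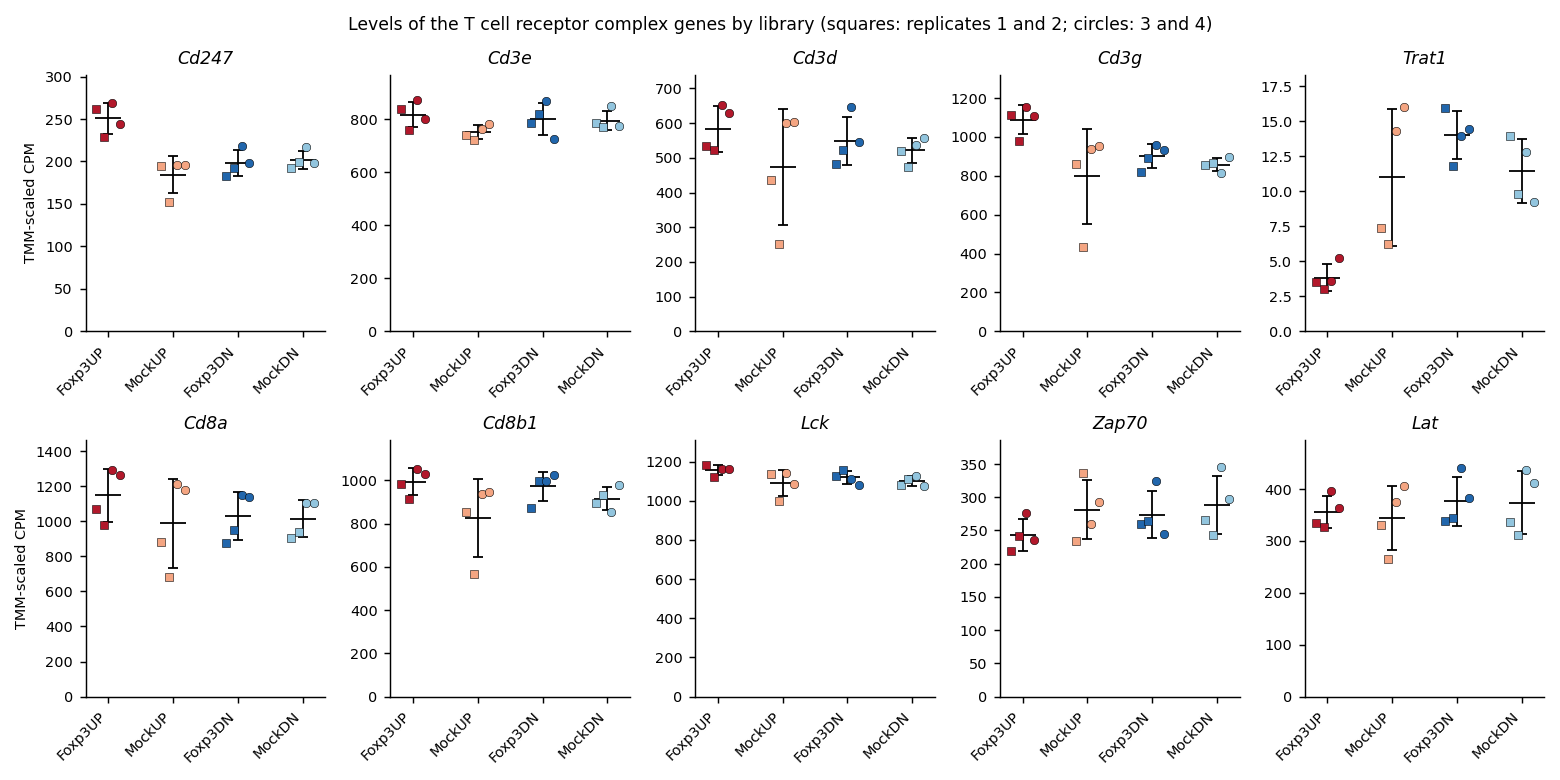
TMM-scaled CPM (linear axis from 0) of the 10 genes in each library of Foxp3UP, MockUP, Foxp3DN and MockDN, with the mean and SD of 4 libraries as bars. All 4 Foxp3UP libraries lie above all 4 MockUP libraries for Cd247 and Cd3g and below them for Trat1, while MockUP 2 is the lowest square of its group for the CD3 and CD8 genes.

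Between Foxp3UP and MockUP, Trat1 fell, Cd247 rose, and the other 8 genes were not called. Trat1, which encodes a transmembrane adaptor that associates with the receptor complex, was 2.87-fold lower. Cd247 was 1.36-fold higher. Neither gene was called between Foxp3DN and MockDN, and the fall of Trat1 differed between the UP and the DN arms. In bulk RNA of this kind, fewer cells that express a gene and less of its RNA per cell cannot be told apart.

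As the genes that moved, Trat1 and Cd247 are shown with the sequence around their transcription starts, from RefSeq on GRCm38.p6 (mm10), 250 bases before to 50 bases after the start. Trat1 lies on the minus strand of chromosome 16 at 48730774 to 48772021 in the count table, and its window is chr16:48772013-48772312. Cd247 lies on the plus strand of chromosome 1 at 165788681 to 165877277, and its window is chr1:165788431-165788730. Capitals mark matches on either strand to core letters bound by families of factors active in T cells: GGAAG (ETS), CTTTGA (TCF/LEF), TGTTTA (forkhead, the family of Foxp3) and TGTGGT (RUNX).
Trat1: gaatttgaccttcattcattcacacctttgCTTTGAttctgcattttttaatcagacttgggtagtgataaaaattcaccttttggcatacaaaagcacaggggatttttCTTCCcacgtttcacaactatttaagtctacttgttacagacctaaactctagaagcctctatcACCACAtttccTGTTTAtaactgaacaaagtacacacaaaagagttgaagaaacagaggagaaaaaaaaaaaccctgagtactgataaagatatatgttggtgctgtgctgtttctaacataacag
Cd247: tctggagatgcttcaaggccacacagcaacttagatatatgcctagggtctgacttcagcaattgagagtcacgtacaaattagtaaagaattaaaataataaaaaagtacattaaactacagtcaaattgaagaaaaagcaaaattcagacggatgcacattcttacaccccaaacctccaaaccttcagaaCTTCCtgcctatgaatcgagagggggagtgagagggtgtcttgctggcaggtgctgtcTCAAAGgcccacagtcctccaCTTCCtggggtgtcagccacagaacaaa

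The Trat1 window held 1 match to each of the 4 motifs, with the forkhead letters 65 bases before the start. The Cd247 window held 2 ETS matches and 1 TCF/LEF match. Of 32851 RefSeq windows of the same length, 71.4% held the ETS letters, 16.0% the TCF/LEF letters, 13.4% the forkhead letters and 16.8% the RUNX letters. Among the 12 windows found for the 10 genes, 1 held the forkhead letters, that of Trat1. Beside the 13.4% of all windows, 1 of 12 does not set the list apart. Of the 10 genes 9 had at least 1 window, and Cd8b1 had none. A match is a description of the letters and does not show that a factor binds there.

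The comparison of Foxp3UP with MockUP asks which of these genes differed between the 2 groups of the UP arm. In all, 1654 of 13711 genes passed the edgeR quasi-likelihood test at a Benjamini-Hochberg adjusted p under 0.05, which is 12.1% of them (6.08% higher and 5.99% lower). Of the 10 genes 1 was higher, 1 lower and 8 not called. With 10 genes, 2 calls beside 12.1% of all genes do not set the list apart. Their median log2 fold change was 0.17, against 0.00 over all genes. The groups did not overlap for 3 of the 10, against 15.9% of all genes. Foxp3UP lay above MockUP for 2 of them, against 8.61% of all genes, and below it for 1, against 7.29%. Scaled by library totals, the split over all genes was 646 higher and 1081 lower, against 833 higher and 821 lower, and the 2 calls among the 10 genes had the same directions.

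Among the chains of the receptor, Cd247 (ENSMUSG00000005763) was at 262, 228, 269 and 245 CPM in Foxp3UP 1 to 4, against 194, 153, 196 and 196 CPM in MockUP 1 to 4. Every Foxp3UP library was above every MockUP library, and MockUP 2 was the lowest of the 16. The log2 fold change was 0.44 ± 0.10 SE (edgeR adjusted p = 0.00609). Without MockUP 2 it was 0.36 (adjusted p = 0.0075), and with the replicate number as a block it was 0.45 (adjusted p = 0.000165). The call was lost when only the 8 libraries of the UP arm were fitted (0.43, adjusted p = 0.0631). It was called within replicates 1 and 2 (0.50, adjusted p = 0.0247) and not within replicates 3 and 4 (0.39, adjusted p = 0.0609), where the spread of all 16 libraries was used. Replicates 1 and 2 fitted alone gave no call for Cd247 or any other gene of the list. Replicates 3 and 4 fitted alone gave 2 genes of the list called higher and 1 lower. The call of Cd247 within replicates 1 and 2 thus depended on the spread of all 16 libraries. Cd247 shares 3007 exonic bases with Pou2f1 on the opposite strand, and no source used here says whether counting used strand. Pou2f1 was at 24.8 ± 2.70 CPM in Foxp3UP and 26.1 ± 1.91 CPM in MockUP (SD, n = 4 each), a log2 difference of -0.08 that was not called (edgeR adjusted p = 0.731).

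Cd3g, the gamma chain of CD3, was at 1113, 979, 1153 and 1109 CPM in Foxp3UP, against 861, 433, 937 and 955 CPM in MockUP. The groups did not overlap, and MockUP 2 stood well below the other MockUP libraries. The log2 fold change of 0.45 ± 0.17 SE was not called (edgeR adjusted p = 0.0981, with a 95% interval of 0.12 to 0.79). With the replicate block it was 0.51 and called (adjusted p = 0.0118). Without MockUP 2 it was 0.24 and not called (adjusted p = 0.0588). In replicates 3 and 4 fitted alone it was 0.24 and called (adjusted p = 0.0258).

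Cd3d, the delta chain, was at 533, 522, 653 and 630 CPM in Foxp3UP, against 437, 252, 599 and 604 CPM in MockUP. The groups overlapped, since replicates 3 and 4 were the higher libraries of both. Its log2 fold change was 0.31 ± 0.19 SE (edgeR adjusted p = 0.337), and without MockUP 2 it was 0.09. Within replicates 1 and 2, where MockUP 2 lies, it was 0.62 and called (adjusted p = 0.0456 with the spread of all 16 libraries). Cd3e, the epsilon chain, which pairs with both the delta and the gamma chain, averaged 817 ± 48.5 CPM in Foxp3UP and 752 ± 26.0 CPM in MockUP (SD, n = 4 each). Its log2 fold change of 0.12 was not called (edgeR adjusted p = 0.381, 95% interval -0.04 to 0.28). Gm48719, antisense to Cd3e with 135 shared exonic bases, stood at a log2 fold change of 0.12 as well (edgeR adjusted p = 0.442). Without strand, reads within these shared bases cannot be assigned to 1 gene of the pair. On chromosome 9 Cd3g and Cd3d lie 1354 bases apart on opposite strands, and Cd3e 11400 bases further along from Cd3d.

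Trat1 (ENSMUSG00000030775) was at 3.52, 2.99, 3.61 and 5.21 CPM in Foxp3UP 1 to 4, against 7.37, 6.26, 14.3 and 16.0 CPM in MockUP 1 to 4. These levels rest on 36 to 48 counts per library in Foxp3UP and 66 to 148 counts in MockUP. All 4 Foxp3UP libraries were below all 4 of MockUP, and MockUP was split, with replicates 1 and 2 below replicates 3 and 4. The log2 fold change was -1.52 ± 0.28 SE (edgeR adjusted p = 0.00192). It was -1.07 within replicates 1 and 2 (adjusted p = 0.0295) and -1.79 within replicates 3 and 4 (adjusted p = 0.000811), where the spread of all 16 libraries was used. Replicates 1 and 2 fitted alone gave -1.07 and no call (adjusted p = 0.139). Leaving out each library in turn gave -1.72, without MockUP 2, to -1.29, and each of these was called.

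The co-receptor chains were not called. Cd8a, the alpha chain, was at 977 to 1290 CPM in Foxp3UP (mean 1149) and 682 to 1212 CPM in MockUP (mean 988), with a log2 fold change of 0.22 ± 0.16 SE (edgeR adjusted p = 0.419). Cd8b1, the beta chain, was at 916 to 1054 CPM in Foxp3UP (mean 995) and 566 to 949 CPM in MockUP (mean 826), a difference of 0.27 ± 0.13 SE (adjusted p = 0.196). With the replicate block both passed, Cd8a at 0.25 (adjusted p = 0.0235) and Cd8b1 at 0.29 (adjusted p = 0.0266). Without MockUP 2 the values were 0.07 and 0.12, and neither was called. The block brought the number of the 10 genes called to 5, with 4 higher and 1 lower, and the number of all genes to 3475.

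The kinases and the scaffold were not called in any fit of this comparison. Lck, the kinase bound to CD8, averaged 1157 ± 25.8 CPM in Foxp3UP and 1090 ± 65.6 CPM in MockUP (SD, n = 4 each), with a log2 difference of 0.09 (edgeR adjusted p = 0.520, 95% interval -0.06 to 0.24). Zap70, the kinase recruited to the phosphorylated chains, was at 219, 242, 276 and 235 CPM in Foxp3UP, against 234, 337, 260 and 293 CPM in MockUP. MockUP 2 was here the highest of its group, and the groups overlapped. The log2 fold change of Zap70 was -0.21 ± 0.13 SE (adjusted p = 0.325), and -0.12 without MockUP 2. Lat averaged 355 ± 31.3 CPM in Foxp3UP and 344 ± 61.7 CPM in MockUP, a log2 difference of 0.05 (adjusted p = 0.875, 95% interval -0.22 to 0.32).

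**Figure D2:**
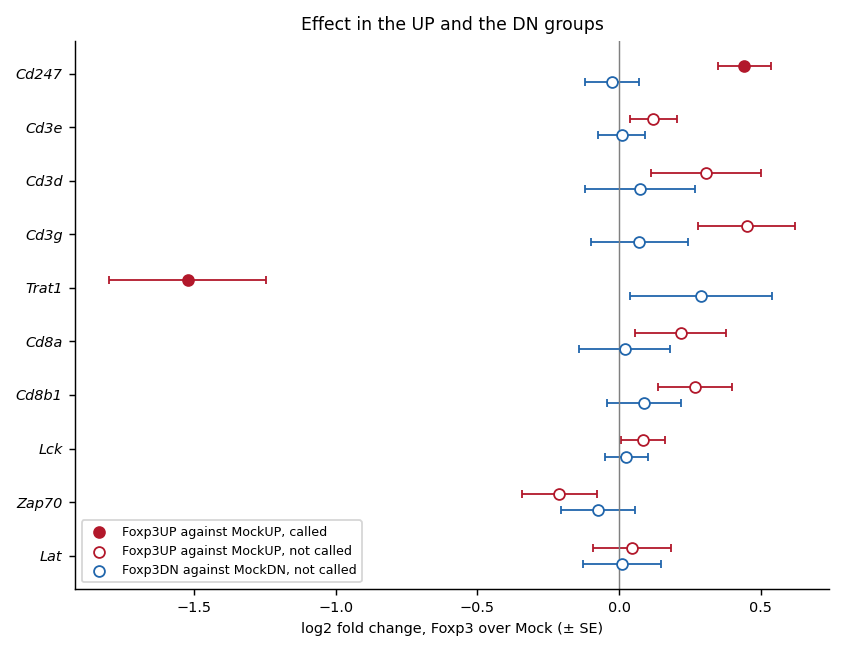
Log2 fold change with its standard error for each of the 10 genes, Foxp3UP over MockUP (red) and Foxp3DN over MockDN (blue). Filled points passed an adjusted p of 0.05: Cd247 at 0.44 and Trat1 at -1.52 in the UP arm, and none in the DN arm.

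Between Foxp3DN and MockDN none of the 10 genes was called by edgeR or by DESeq2, and none had an unadjusted p under 0.05. Of all 13711 genes 1 was called, 0.00729%, and 143 had an unadjusted p under 0.05. The called gene was Thy1, which encodes the sorting marker CD90, and it was lower in Foxp3DN. The part of the sort in this call was not tested. None of the 10 genes separated the groups without overlap, against 1.15% of all genes (0.547% above and 0.598% below), and their median log2 fold change was 0.02. Trat1 was at 15.9, 11.8, 14.0 and 14.4 CPM in Foxp3DN, against 14.0, 9.77, 12.8 and 9.26 CPM in MockDN. The groups overlapped, and each Foxp3DN library was above its same-numbered MockDN library. The log2 difference was 0.29 ± 0.25 SE (edgeR adjusted p = 1.00, 95% interval -0.20 to 0.78). Cd247 averaged 198 ± 15.1 CPM in Foxp3DN and 202 ± 10.6 CPM in MockDN (SD, n = 4 each), with a log2 difference of -0.03 (adjusted p = 1.00, 95% interval -0.21 to 0.16). The other 8 genes lay between -0.08 for Zap70 and 0.09 for Cd8b1, and the values of Cd3e and Lat, each at 0.01, turned to -0.00 with library totals.

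The effect in the UP arm minus the effect in the DN arm was called for 251 of 13711 genes, 1.83% (0.963% higher and 0.868% lower), and for 1 of the 10, which was lower. That gene was Trat1, at -1.81 ± 0.37 SE on the log2 scale (edgeR adjusted p = 0.0208). It kept its call without each of the 16 libraries in turn, with values from -2.00 to -1.58 and adjusted p up to 0.0478. Within replicates 1 and 2 the value was -1.28 and not called (adjusted p = 0.113 with the spread of all 16 libraries). The difference for Cd247 was 0.47 ± 0.13 SE and not called by edgeR (adjusted p = 0.0811). It was called by DESeq2 (0.46, adjusted p = 0.0279), with the replicate block (0.48, adjusted p = 0.00278) and in replicates 3 and 4 alone (0.37, adjusted p = 0.0456). For Cd3g the difference of effects was 0.38 ± 0.24 SE (edgeR adjusted p = 0.482). The number of genes called in all moved with the library left out, from 99 without MockDN 1 to 518 without MockUP 1. With library totals the split was 114 higher and 187 lower, against 132 higher and 119 lower with TMM.

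Foxp3UP was also set against Foxp3DN, which shares its Foxp3UP libraries with the comparison above. In all 1616 genes were called, 11.8% (6% higher and 5.78% lower), and of the 10 genes 1 was higher, 1 lower and 8 not called. Trat1 was 3.67-fold lower in Foxp3UP, at 3.83 ± 0.96 CPM, than in Foxp3DN, at 14.0 ± 1.72 CPM (SD, n = 4 each; log2 fold change -1.88 ± 0.27 SE, edgeR adjusted p = 0.000412). Cd247 was higher by 0.34 ± 0.09 SE, at 251 ± 18.2 CPM in Foxp3UP and 198 ± 15.1 CPM in Foxp3DN (adjusted p = 0.0265). The groups did not overlap for either gene, nor for Cd3g (0.27, not called, adjusted p = 0.328), against 22.9% of all genes (11.7% above and 11.2% below). The call of Cd247 was lost with no filter on low counts (adjusted p = 0.0777). It was also lost without Foxp3UP 1 (0.0840), Foxp3UP 3 (0.0793), Foxp3DN 1 (0.0870), Foxp3DN 2 (0.0739) and Foxp3DN 4 (0.0654). Zap70 was at -0.17, Cd8a at 0.16 and the other 5 genes between -0.08 and 0.09, none of them called. Some markers of other cells were called higher in Foxp3UP than in Foxp3DN, namely the myeloid marker Cd68 (0.97, edgeR adjusted p = 0.000929, 1 of 7 tested), the fibroblast collagen gene Col3a1 (1 of 2 stromal and endothelial markers tested) and the epithelial gene Epcam (1.01, adjusted p = 0.0399, 1 of 6 melanocyte and epithelial markers tested). Col3a1 was at 0.264 to 4.34 CPM in Foxp3UP and at most 0.168 CPM in Foxp3DN (edgeR adjusted p = 0.0199). The NK cell marker Klrb1c was lower, at 0.217 to 0.831 CPM in Foxp3UP and 1.01 to 1.38 CPM in Foxp3DN (edgeR adjusted p = 0.0455, 1 of 3 NK cell markers tested). Their part in the values of Trat1 and Cd247 was not tested.

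The Mock groups differed in none of the 10 genes by edgeR or DESeq2, and none had an unadjusted p under 0.05. Of all genes 1 was called, 0.00729%, again Thy1, which was higher in MockUP, and 433 had an unadjusted p under 0.05. None of the 10 genes separated the groups without overlap, against 1.85% of all genes (0.751% above and 1.09% below). All 10 log2 fold changes of MockUP over MockDN were below 0, from -0.15 for Cd8b1 to -0.01 for Lck. Their median was -0.09, against 0.01 over all genes. These values rest on the same libraries, MockUP 2 among them. MockUP 2 was the lowest MockUP library for each of the 10 genes except Zap70. For Zap70 it was the highest, and the log2 fold change was below 0 there too, at -0.04. For Cd3g MockUP 2 was at 433 CPM, against 861 to 955 in the other MockUP libraries and 814 to 895 in MockDN. Trat1 averaged 11.0 ± 4.89 CPM in MockUP and 11.4 ± 2.29 CPM in MockDN (SD, n = 4 each). Cd247 averaged 185 ± 21.4 CPM in MockUP and 202 ± 10.6 CPM in MockDN. From the highest mean level to the lowest, Trat1 followed the order Foxp3DN, MockDN, MockUP and Foxp3UP, with only Foxp3UP separate from the other groups. For Cd247 the order was Foxp3UP, MockDN, Foxp3DN and MockUP, again with only Foxp3UP separate.

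Ratios between genes of one library do not depend on how libraries are scaled. A set of 5 pairs were compared in each arm, 10 tests in all, on log2 ratios of counts with a two-sided exact permutation test whose smallest p with 4 against 4 libraries is 0.0286. For each Cd3e count there were 0.313, 0.301, 0.308 and 0.306 Cd247 counts in Foxp3UP 1 to 4, against 0.263, 0.211, 0.257 and 0.250 in MockUP 1 to 4. The Foxp3UP ratios lay close together and above all those of MockUP, and also above those of Foxp3DN, at 0.232 to 0.273, and MockDN, at 0.245 to 0.258. On the log2 scale the mean was -1.70 ± 0.02 in Foxp3UP and -2.03 ± 0.14 in MockUP (SD, n = 4 each; difference 0.33, exact permutation p = 0.0286, adjusted p = 0.143 over the 10 tests). Since the groups did not overlap, any pairing of them gives 1 sign in 4 of 4 pairs. The exact sign-flip test over 4 pairs cannot give less than p = 0.125, so pairing by number adds nothing here.

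For each Cd3e count there were 1.33, 1.29, 1.32 and 1.39 Cd3g counts in Foxp3UP 1 to 4, against 1.16, 0.599, 1.23 and 1.22 in MockUP 1 to 4. The groups did not overlap, and MockUP 2 stood far below the rest of its group. The log2 difference of Cd3g/Cd3e was 0.40 (exact permutation p = 0.0286, adjusted p = 0.143), and without MockUP 2 it was 0.14 (p = 0.0571, the smallest that 4 against 3 libraries allow). Cd3d/Cd3e differed by 0.26 (exact permutation p = 0.514), Cd8a/Cd8b1 by -0.05 (p = 0.629) and Zap70/Lck by -0.29 (p = 0.171), and these groups overlapped. In the DN arm all 5 ratios overlapped, with differences from -0.10 to 0.06 and exact permutation p from 0.486 to 0.571. After adjustment no ratio passed in either arm.

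**Figure D3:**
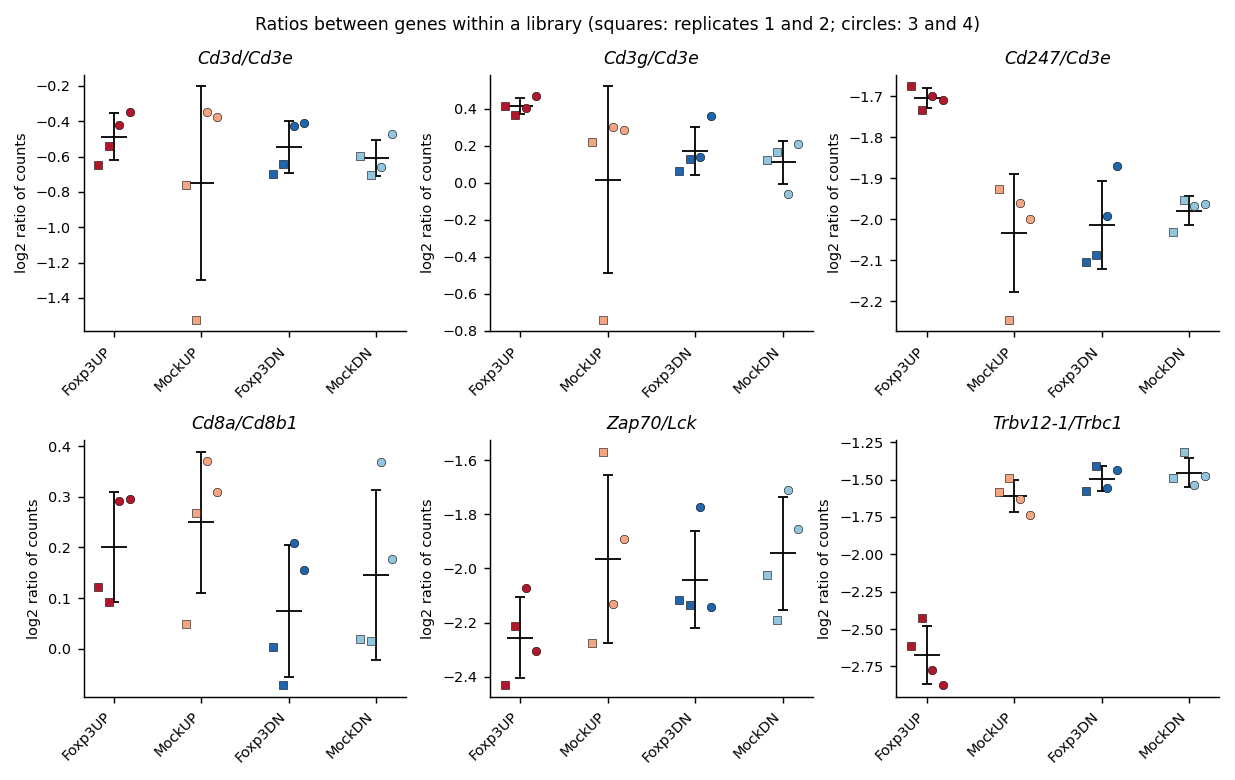
Log2 ratio of the counts of 2 genes in each library, with the mean and SD of 4 libraries, for 5 pairs of the 10 genes and for Trbv12-1 over Trbc1. Foxp3UP lies above all other groups for Cd247/Cd3e, at a mean of -1.70 against -2.03 in MockUP, and below them for Trbv12-1/Trbc1, and MockUP 2 is the low square at -0.74 for Cd3g/Cd3e.

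The alpha and beta chains that the complex carries were not called at their constant genes. Trac averaged 822 ± 81.1 CPM in Foxp3UP and 756 ± 173 CPM in MockUP, Trbc1 663 ± 77.3 and 599 ± 183 CPM, and Trbc2 671 ± 39.9 and 693 ± 224 CPM (SD, n = 4 each). Their log2 fold changes were 0.12, 0.15 and -0.05 (edgeR adjusted p = 0.617, 0.626 and 0.917). Among the 7 constant genes 0 were higher, 1 lower and 6 not called, with a median of -0.01, where 12.1% of all genes were called (5.99% lower), so the count of 1 of 7 is near that share. The gene that fell was Tcrg-C2, a constant gene of the gamma chain of the other T cell lineage, at 8.99, 5.49, 11.2 and 10.6 CPM in Foxp3UP, against 19.0, 11.0, 22.9 and 24.8 CPM in MockUP. Only Foxp3UP 3 and MockUP 2 overlapped, and the log2 fold change was -1.10 ± 0.23 SE (edgeR adjusted p = 0.00556, and 0.0505 when only the UP arm was fitted). Gamma constant genes are similar in sequence, so their counts are uncertain.

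The variable gene Trbv12-1 was chosen after its values were seen. It held 94.0% to 98.9% of all counts at beta variable genes in every library, and it belongs to the beta variable family that the OT1 receptor uses. Trbv12-1 was at 95.9, 113, 103 and 102 CPM in Foxp3UP 1 to 4, against 180, 131, 234 and 229 CPM in MockUP 1 to 4. All Foxp3UP libraries were below all MockUP libraries, and also below Foxp3DN, at 202 to 233 CPM, and MockDN, at 206 to 220 CPM. The log2 fold change of Trbv12-1 was -0.90 ± 0.14 SE (edgeR adjusted p = 0.000622) and its difference from the DN arm was -0.94 ± 0.19 SE (adjusted p = 0.0179). For each Trbc1 count there were 0.136 to 0.186 Trbv12-1 counts in Foxp3UP and 0.299 to 0.357 in MockUP. Within replicates 1 and 2 alone the fold change of Trbv12-1 was -0.58 and not called (adjusted p = 0.160). Close copies of this variable gene and the way transgene reads were assigned make its counts uncertain.

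Lists of other genes of the pathway were counted in Foxp3UP against MockUP. Of 20 other proximal kinases and adaptors 4 were higher, 0 lower and 16 not called, with a median of 0.12, where 6.08% of all genes were higher and 5.99% lower with a median of 0.00. Grap2, which encodes the adaptor GADS that links LAT to SLP-76, averaged 61.2 ± 10.6 CPM in Foxp3UP and 44.7 ± 3.10 CPM in MockUP (SD, n = 4 each) and rose by 0.45 (edgeR adjusted p = 0.0201). The adaptors Nck2 and Nck1, which bind the CD3 epsilon tail and link to the actin cytoskeleton, rose by 0.42 (adjusted p = 0.0172) and 0.37 (adjusted p = 0.0273). Fyb, the adaptor ADAP that links the receptor to integrins, rose by 0.31 (adjusted p = 0.0261). The call of Grap2 was lost without Foxp3UP 3 (0.0645) or 4 (0.0741), that of Nck2 without Foxp3UP 4 (0.0584) and that of Fyb without Foxp3UP 3 (0.0720) or 4 (0.0807). The call of Nck1 was lost without any 1 Foxp3UP library (adjusted p 0.0551 to 0.0653) and without MockUP 3 (0.0560).

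Of 20 negative regulators of proximal signalling 3 were higher, 0 lower and 17 not called, with a median of 0.01, beside the 12.1% of all genes called (6.08% higher). Pag1, the membrane adaptor that recruits the inhibitory kinase CSK, averaged 54.4 ± 1.29 CPM in Foxp3UP and 37.7 ± 9.05 CPM in MockUP (SD, n = 4 each) and rose by 0.53 (edgeR adjusted p = 0.0157, and 0.0534 without MockUP 4). Ubash3b, the phosphatase STS-1 that acts on ZAP-70, averaged 172 ± 10.1 CPM in Foxp3UP and 125 ± 9.58 CPM in MockUP and rose by 0.46 (adjusted p = 0.00804). Dgka, a kinase that converts the second messenger diacylglycerol, rose by 0.40 (adjusted p = 0.0136, and 0.0512 without Foxp3UP 3). Of 20 genes of the downstream branches 1 was higher, 0 lower and 19 not called, with a median of -0.08, again beside 12.1% of all genes. It was Prkcq, protein kinase C theta, at 366 ± 15.8 CPM in Foxp3UP and 311 ± 5.91 CPM in MockUP, which rose by 0.23 (edgeR adjusted p = 0.0393). The call of Prkcq was lost without any 1 of Foxp3UP 1, 3 and 4 and MockUP 1, 3 and 4 (adjusted p 0.0675 to 0.104), and with library totals (0.118). With only the 8 UP libraries fitted, 7 of these 8 calls in the 3 lists were lost (adjusted p 0.0911 to 0.199), all but that of Ubash3b. With no filter on low counts those of Nck2, Fyb, Nck1 and Prkcq were lost (0.0575 to 0.251).

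None of 5 adaptors with comparable roles in other lineages, Fcer1g, Tyrobp, Hcst, Cd79a and Cd79b, was called. In Foxp3DN against MockDN no gene of these 5 lists was called, and in the difference of effects none was either. Of 7 myeloid markers tested in Foxp3UP against MockUP, 6 had a log2 fold change above 0, 4 had an unadjusted p under 0.05 and the median was 0.86, against 0.00 over all genes. The 1 called was Cd68, which rose by 0.86 (edgeR adjusted p = 0.00207). Of the stromal and endothelial markers tested 2 of 2 were above 0 (median 1.51), and of the melanocyte and epithelial markers 5 of 6 (median 0.39). The B cell markers had 2 of 2 above 0 (median 0.24), the CD4 T cell markers 1 of 1 (0.60) and the NK cell markers 1 of 3 (median -0.04). None of these was called. The lists were chosen with results of these libraries known and give counts, not a test of the lists.

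**Figure D4:**
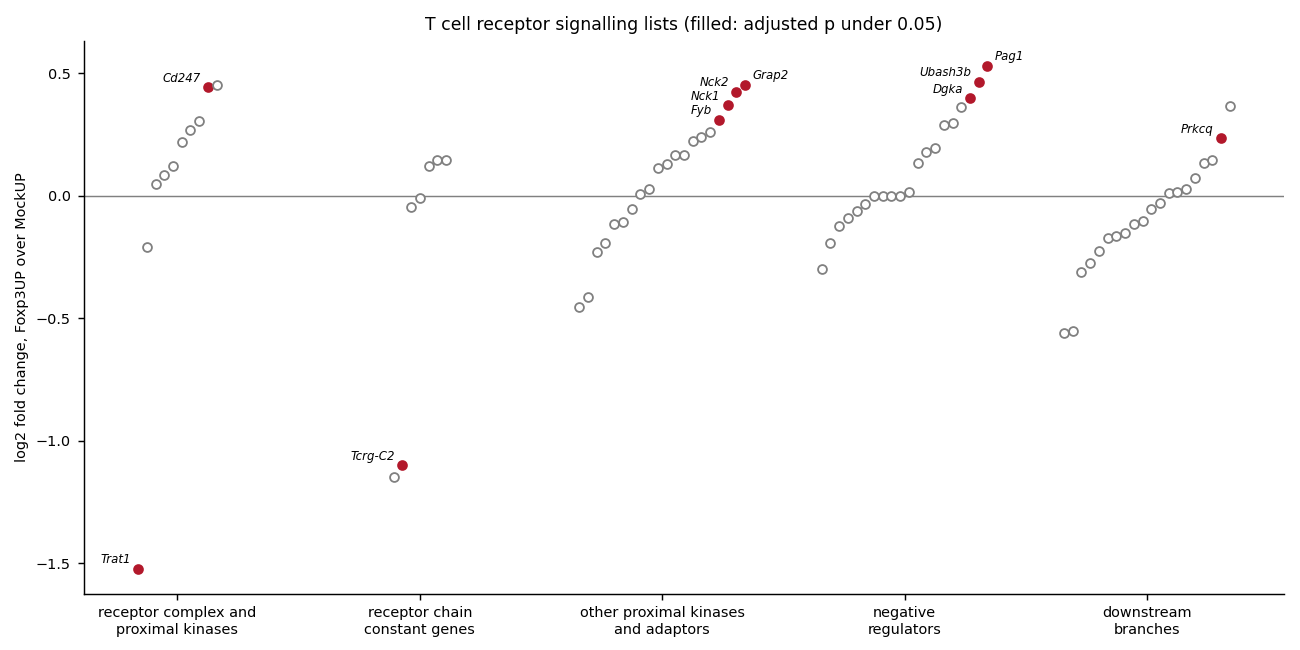
Log2 fold change of Foxp3UP over MockUP for each gene of 5 lists of T cell receptor signalling genes, ordered by value within a list, with called genes filled and named. The 10 genes described here are on the left, with Trat1 at -1.52 the lowest of all the genes plotted, and calls in the other lists number 1 of 7, 4 of 20, 3 of 20 and 1 of 20.

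The 10 genes did not vary as one block over the 16 libraries. The mean of their standardised log2 levels correlated across libraries at 0.96 with Cd3d and 0.90 with Cd8a, at 0.10 with Trat1 and at -0.04 with Zap70 (Pearson's r as a description, n = 16 libraries, each gene being 1 of the 10 averaged). Without MockUP 2 the value of Zap70 was 0.43 and that of Trat1 was -0.17. Outside the list, the genes with at least 10 CPM most like this mean were Mvb12a (0.96), Ubb (0.96), Mien1 (0.94), Nkg7 (0.94) and Atp6v0b (0.94). Without MockUP 2 they were Mien1 (0.90), Gimap3, Mvb12a, H13 and Nkg7 (each 0.88). The libraries share their depth, their set of replicates and their arm, so these values describe co-variation in this series.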

How the data were processed

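RNA-seq of 16 libraries was analysed from the deposited table of raw read counts per gene. The authors' processing used STAR 2.6.1, Subread 1.6.3 and mm10, per the submitters' processing notes; no source used here gives the counting options or strand. Per the file headers, exonic length in bases and gene coordinates are in the deposited table too; the length was used for levels per kilobase. Of 55573 identifiers, 55480 were named from GENCODE M21, and 55304 of these had equal coordinates there. All columns matched a sample by its number in the title. No 2 libraries of 1 group agreed within sampling noise.

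Counts were filtered with filterByExpr (minimum count 10), scaled by TMM and tested (edgeR 4.0.16, R 4.3.3, quasi-likelihood F test, robust, all 16 libraries, a term per group). Genes were called at a two-sided Benjamini-Hochberg adjusted p under 0.05 over all genes. The SE of a log2 fold change is its ratio to the root of F. The 95% intervals come from it with the multiplier of a normal distribution, so they are narrower than the F test implies. Ratios used log2 of counts plus 0.5 and scipy 1.17.1. DESeq2 1.42.0, RLE factors, library totals, other filters, subsets of libraries and leaving out each library were alternatives; within-set fits with the spread of all libraries were added after seeing the data. The scripts were tested on simulated counts.

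Replicate numbers were taken as pairs only in the replicate block and the sign-flip test, and the main fit had no term for them. Foxp3 and Mock libraries of 1 number deviated from their groups' means with correlations of 0.630, 0.213, 0.297 and 0.398 (UP) and 0.364, 0.582, 0.545 and 0.298 (DN). The highest correlation with a Mock library of another number was 0.0444, 0.173, 0.22 and 0.364 (UP) and 0.235, 0.172, 0.237 and 0.208 (DN). In UP 2, 3 and 4 the margin was small. The genes and lists were chosen with earlier results of these data known. All 10 genes are named in each comparison, with Foxp3, up to 4 called genes per list by smallest adjusted p, and the 5 genes most like the mean of the 10; Trbv12-1 and genes overlapping the 10 were added after their values were seen.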

Additional observations from a re-analysis of the deposited data

Results flagged for a closer look

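Of 68 sets of 4 libraries examined for 1 value far from the rest, 3 were flagged. Chance flags about 1 in 20, so this number is no more than chance gives. Cd247 was at 152.5 CPM in MockUP 2, against 194 to 196 in the other MockUP libraries. The log2 ratio of Cd3g to Cd3e was -0.74 in MockUP 2, against 0.22 to 0.30 in the other MockUP libraries. The log2 ratio of Zap70 to Lck was -1.77 in Foxp3DN 3, against -2.14 to -2.12 in the other Foxp3DN libraries.

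The effect in the UP arm differed from that in the DN arm for 3 named genes by the test of the difference itself. It was -1.81 for Trat1 (edgeR adjusted p = 0.0208), 1.25 for Foxp3 (adjusted p = 0.0144) and -0.94 for Trbv12-1 (adjusted p = 0.0179), on the log2 scale.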

How the results depend on the processing

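Genes called in Foxp3UP against MockUP numbered 1654, and 658 with only the UP arm fitted, 3475 with the replicate block, 31 and 3025 with only replicates 1 and 2 or 3 and 4, and 1064 to 1978 leaving out 1 library. Of the 10 genes, 2 were called, and 1 with only the UP arm fitted and 5 with the block. The number was 0 with only replicates 1 and 2 and 3 with only replicates 3 and 4. With the spread of all libraries it was 3 within replicates 1 and 2 and 1 within replicates 3 and 4. In Foxp3DN against MockDN the subsets gave 0 and 3 genes. For the difference of effects the 251 calls became 666 with DESeq2, 1739 with the block, 2 and 1688 in the subsets, 70 within replicates 1 and 2 with the spread of all libraries, and 99 to 518 leaving out 1 library; of the 10 genes, 2 were called with DESeq2, the block and replicates 3 and 4, and 0 in both fits within replicates 1 and 2. Foxp3UP against Foxp3DN had 1616 calls, and 2492 with only those groups, 2755 with the block, 130 and 3440 in the subsets, 770 within replicates 1 and 2 with the spread of all libraries, and 842 to 1477 leaving out 1 library; of the 10 genes 3 were called in replicates 3 and 4 alone and 1 to 2 in the other settings. MockUP against MockDN had 1 call, 2 with no filter, 10 with DESeq2, 35 in replicates 3 and 4, 2 within replicates 1 and 2 with the spread of all libraries, and 1 to 2 leaving out 1 library. The ratios Cd3g/Cd3e and Cd247/Cd3e could not pass paired by number (0.40 and 0.33, exact sign-flip p = 0.125, the smallest that 4 pairs allow). They ranged from 0.14 to 0.49 and from 0.26 to 0.36 leaving out 1 library (exact permutation p = 0.0571, the smallest that 4 against 3 libraries allow). The cause of these changes was not tested, beyond fewer libraries in the subsets. Beyond the calls named above, the block changed none of the 10 genes. No called value changed its direction under any alternative. At 36 to 48 counts, Trat1 in Foxp3UP is limited by depth; its SE holds counting error and the spread between libraries together.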
